A study of Mus musculus with 12 samples.

Results

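The genes of 10 integrin chains of skeletal muscle were followed through the differentiation of emerin-null and wildtype myogenic progenitors. They are the 7 alpha chains Itga3, Itga4, Itga5, Itga6, Itga7, Itga9 and Itgav and the 3 beta chains Itgb1, Itgb3 and Itgb5. They were chosen by gene symbol, out of 15914 gene symbols with a usable entry in the 6 stage tables, and all 10 had one at all 6 stages. Where a table held several entries for a chain, the one with the largest summed FPKM of both genotypes was kept. FPKM counts sequenced fragments relative to transcript length and to all mapped fragments, so levels of different chains in a sample can be set side by side.

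Integrins are adhesion receptors made of 1 alpha and 1 beta chain that span the plasma membrane. The alpha chain largely sets which matrix protein is bound, and the beta chain's tail recruits talin and kindlin, which connect the receptor to actin. Itgb1 pairs with most of the alpha chains named here. In muscle the pair of Itga7 and Itgb1 is the main laminin-binding integrin of the fibre and is concentrated at myotendinous junctions, while Itga5 with Itgb1 binds fibronectin and is typical of myoblasts.

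RNA was sequenced from H2K cells, mouse myogenic progenitors whose temperature-sensitive immortalizing antigen is driven by a promoter that responds to interferon. Emerin-null cells lack emerin, a protein of the inner nuclear membrane encoded by the X-linked gene Emd, and wildtype cells carry it. For each genotype there were 6 samples, namely proliferating cells and differentiating cells at days 0, 1, 2, 3 and 4, which makes 12. Proliferating and day 0 cells of both genotypes stood in medium with 20% serum and 20 units/ml interferon-γ, and cells of days 1 to 4 in medium with 5% horse serum without interferon-γ. By the methods, day 0 cells were plated more densely than proliferating cells, and the switch of medium came with a change of temperature and carbon dioxide. Each genotype is a single cell line, and each sample was made from 3 plates that the tables give as 1 value. The plates' spread and the sequencing depth are therefore unknown, and a genotype difference at 1 stage carries no test here. The comparison over stages uses the 6 within-stage log2 ratios, whose spread is that between stages and not between cultures.

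The labels were first checked on Emd. From proliferation to day 4 its FPKM in emerin-null progenitors was 0.810, 0.0859, 0, 3.10, 0.0421 and 0.0735, against 14.9, 62.1, 50.9, 13.6, 29.6 and 31.8 in wildtype progenitors. Emd was lower in the emerin-null cells at all 6 stages, by a mean log2 ratio of -6.46 (SE 0.97, adjusted p = 0.00662 in limma). Of the 4 markers of muscle progenitors (Pax7, Myf5, Myod1 and Des), all 4 were measured, and their summed FPKM lay between 103 and 1518 in emerin-null and between 83.6 and 1576 in wildtype cells, the lowest sum being that of day 4, where Des had no usable entry. The endothelial markers summed to at most 1.33 FPKM in emerin-null and 0.940 FPKM in wildtype cells.

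The tables were assembled stage by stage, and the kept entry of a chain was not always a full gene model. A second reading was therefore taken from the widest locus that named no other gene, where there was one, and, where that locus held several entries, from the middle one by summed FPKM (of 2, the higher), here called the widest entry. It differed from the kept entry at 9 of 60 chain and stage pairs, at 7 of them at another locus and at 2, Itga3 at day 4 and Itgav at day 3, at the same coordinates. Itga3 had 3 entries at its day 4 locus. The kept one was listed at 0 in emerin-null and at 25800900 FPKM in wildtype progenitors, the middle one had 7.68 FPKM in emerin-null and 3.69 FPKM in wildtype progenitors, and the last had 0.759 FPKM in emerin-null and 2.23 FPKM in wildtype progenitors. Itgav at day 3 had 643 FPKM in emerin-null and 306 FPKM in wildtype cells in the kept entry, 5.36 and 5.63 FPKM in emerin-null and wildtype cells in the middle one, and 4.89 and 4.97 FPKM in the last. Both readings are given for each such chain below, as the kept entry and the widest entry. The second was introduced after these values were seen.

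The chains lie on 7 chromosomes of the GRCm38 assembly (mm10). Itga3 is at chr11:95044474-95076801 on the minus strand, Itga4 at chr2:79255426-79333123, Itga5 at chr15:103344286-103366763 on the minus strand, Itga6 at chr2:71745616-71858416 and Itga7 at chr10:128933818-128958282. Itga9 is at chr9:118606690-118901003, Itgav at chr2:83724397-83806916, Itgb1 at chr8:128685654-128733200, Itgb3 at chr11:104608000-104670476 and Itgb5 at chr16:33829665-33949338. Loci shared with another gene concerned 3 of the chains. The 3′ end of Itga7 overlaps the antisense gene Mettl7b by 9 bases, and the tables join both under 1 locus at all 6 stages. That locus covered 90.5% of Mettl7b at day 1 but 0.847% of it at day 3 and 1.44% at day 4, and at least 78.7% of Itga7 at each stage. Itga4 was joined with the overlapping antisense gene Cerkl at days 0, 2 and 3, and the kept Itgb5 entry of day 2 was joined with its neighbour Umps. Whether the counting used strand is not given in the sources used here, so reads of the antisense partners cannot be told apart.

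Itgb1 and Itga7 were the most abundant chains in both genotypes. With the widest entries Itgb1 ranked first in proliferating cells and at days 0, 1 and 3, and Itga7 ranked first at days 2 and 4, in emerin-null and in wildtype progenitors alike. At the other end Itga9 ranked last in proliferating cells and at days 0 and 1, and Itgb3 at days 2, 3 and 4, in both genotypes. The plot of levels by stage shows all 10 chains.

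**Figure D1:**
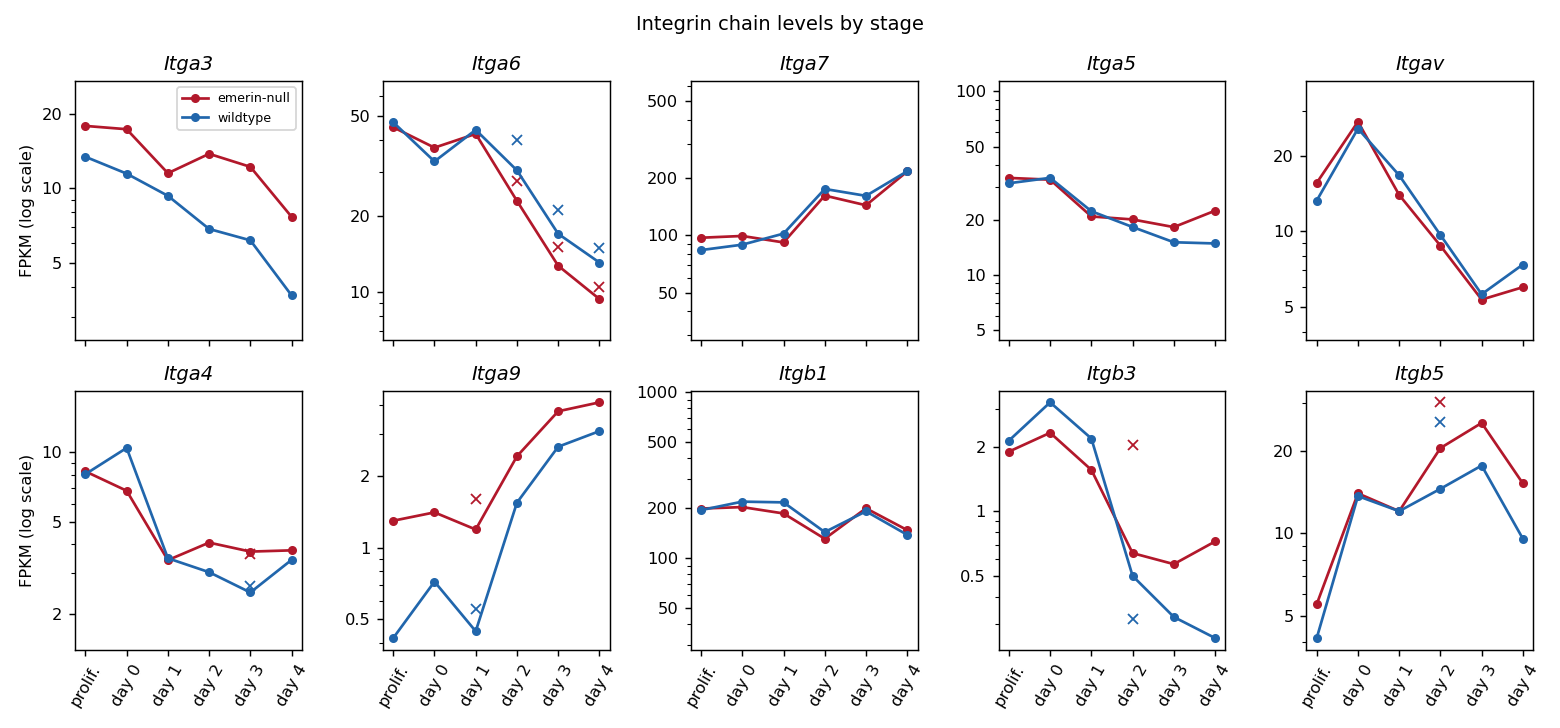
FPKM (log scale) of the 10 integrin chains at the 6 stages in emerin-null (red) and wildtype (blue) progenitors, 1 value per genotype and stage; lines join the widest entries and crosses mark kept entries that differ from them, except Itga3 at day 4 and Itgav at day 3, which lie off the scale. Itga3 and Itga9 lie above wildtype in the emerin-null cells at all 6 stages, Itga7 ends at 215 FPKM in emerin-null and 216 FPKM in wildtype cells, and Itgb1 overlaps throughout.

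The laminin-binding alpha chains went different ways as the cells differentiated. Itga7 had 97.0, 99.1, 91.7, 161, 143 and 215 FPKM in emerin-null progenitors from proliferation to day 4, against 83.6, 89.3, 102, 174, 161 and 216 FPKM in wildtype progenitors. It was thus at its highest at day 4 in both genotypes, 2.17-fold over day 0 in emerin-null and 2.42-fold over day 0 in wildtype cells. The genotypes lay within 1.2-fold of each other at every stage, with the emerin-null value above wildtype in both growth-medium samples and below it at days 1 to 4. A second entry at the Itga7 locus had 5.23 FPKM in emerin-null and 4.76 FPKM in wildtype cells at day 0. At day 4 it had 113 FPKM in emerin-null and 115 FPKM in wildtype cells. Summed over entries, Itga7 had 104 FPKM at day 0 and 328 FPKM at day 4 in emerin-null cells. In wildtype cells the summed levels were 94.0 FPKM at day 0 and 331 FPKM at day 4, so the rise was larger in both genotypes than in the kept entry.

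Itga6, the alpha chain of a laminin receptor of proliferating myoblasts and many epithelia, had 45.1, 37.4, 42.5, 27.6, 15.1 and 10.4 FPKM in emerin-null progenitors, against 47.2, 33.0, 44.1, 40.2, 21.1 and 15.0 FPKM in wildtype progenitors. The kept entries of days 2, 3 and 4 covered only the 3′ part of the gene (between 13.3 and 13.5% of its length), and the widest entries had 23.0, 12.7 and 9.35 FPKM in emerin-null and 30.4, 17.0 and 13.1 FPKM in wildtype cells. In either reading the level at day 4 was under that of day 0 by over 2-fold in both genotypes, and the emerin-null values were the lower ones at days 2, 3 and 4. None of the 6 stages passed the 1.5-fold mark for Itga6.

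Itga3, which binds laminins of basement membranes, had 17.9, 17.4, 11.5, 13.8 and 12.2 FPKM in emerin-null progenitors from proliferation to day 3, against 13.4, 11.5, 9.34, 6.85 and 6.16 FPKM in wildtype progenitors. Its widest entry at day 4 had 7.68 FPKM in emerin-null and 3.69 FPKM in wildtype cells. With it, all 6 emerin-null values lay above the wildtype value of their stage, and those of days 0, 2, 3 and 4 by more than 1.5-fold. The largest of these ratios was a log2 ratio of 1.04 at day 4. Other entries at the same locus had the lower value in the emerin-null cells, at day 3 with 0.0832 FPKM in emerin-null and 1.35 FPKM in wildtype cells, besides those of day 4 given above. In both genotypes the lowest of the 6 levels stood at day 4.

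The fibronectin receptor chain Itga5 had 33.8, 33.1, 20.8, 20.1, 18.2 and 22.4 FPKM in emerin-null progenitors, against 31.6, 33.8, 22.3, 18.3, 15.1 and 14.9 FPKM in wildtype progenitors. Both genotypes gave their highest levels in growth medium. At day 4 the emerin-null value exceeded the wildtype value by more than 1.5-fold (log2 ratio 0.59), and at the other 5 stages the log2 ratios lay between -0.09 and 0.27.

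Itgav, which pairs with several beta chains to bind proteins such as vitronectin through the RGD motif, had 15.6, 27.2, 13.9 and 8.77 FPKM in emerin-null progenitors from proliferation to day 2, against 13.3, 25.6, 16.7 and 9.67 FPKM in wildtype progenitors. At day 4 it had 6.0 FPKM in emerin-null and 7.39 FPKM in wildtype cells. Both genotypes thus peaked at day 0, and with the widest entry of day 3 no stage passed 1.5-fold. With the kept entry of day 3 that stage alone did, at a log2 ratio of 1.07.

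Itga4, whose pair with Itgb1 binds fibronectin and the cell surface ligand VCAM-1, had 8.27, 6.83, 3.42, 4.08, 3.65 and 3.77 FPKM in emerin-null progenitors, against 8.05, 10.4, 3.49, 3.04, 2.66 and 3.43 FPKM in wildtype progenitors. The widest entry of day 3 had 3.73 FPKM in emerin-null and 2.48 FPKM in wildtype cells. Day 0 was the stage past 1.5-fold, with the emerin-null value the lower one (log2 ratio -0.61). From day 1 on both genotypes stayed under 5 FPKM.

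Itga9 was the least abundant alpha chain in growth medium. The pair of Itga9 and Itgb1 binds tenascin-C, osteopontin, VCAM-1 and EMILIN1. Its FPKM was 1.30, 1.41, 1.60, 2.43, 3.75 and 4.09 in emerin-null progenitors, against 0.418, 0.721, 0.553, 1.55, 2.66 and 3.10 in wildtype progenitors. All 6 emerin-null values lay above their wildtype partner, and those of proliferating cells and of days 0, 1 and 2 by more than 1.5-fold. Both genotypes had more Itga9 at each stage from day 1 to day 4 in turn, and the log2 ratio was 1.44 in proliferating cells and 0.39 at day 4. At day 1 Itga9 was assembled in 4 pieces, and each of them had the higher value in the emerin-null cells (1.60, 1.19, 0.770 and 0.515 FPKM, against 0.553, 0.446, 0.248 and 0.177 FPKM in wildtype cells).

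The common beta chain Itgb1 had 199, 203, 186, 131, 199.8 and 148 FPKM in emerin-null progenitors, against 195, 219, 217, 144, 192 and 138 FPKM in wildtype progenitors. It was the steadiest of the chains, its highest level being 1.55 times its lowest in emerin-null and 1.58 times its lowest in wildtype cells. The genotypes lay within 1.2-fold of each other at all 6 stages. Low values at days 2 and 4 were shared by both genotypes.

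Itgb5, a partner of Itgav, had 5.5, 14, 12, 30.1, 25.3 and 15.2 FPKM in emerin-null progenitors, against 4.14, 13.7, 12, 25.6, 17.7 and 9.55 FPKM in wildtype progenitors. The kept entry of day 2 covered only 2.32% of Itgb5 but 100% of Umps. The widest entry of day 2 had 20.5 FPKM in emerin-null and 14.5 FPKM in wildtype cells. Day 0 cells had 2.51 times the level of proliferating cells in the emerin-null and 3.25 times in the wildtype line, and with the widest entries it was highest at day 3. The genotypes coincided at days 0 and 1, and the emerin-null value was past 1.5-fold above wildtype at day 4 only (log2 ratio 0.67).

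Itgb3, which also pairs with Itgav, had 1.90, 2.32, 1.56, 2.03, 0.568 and 0.724 FPKM in emerin-null progenitors, against 2.13, 3.21, 2.18, 0.317, 0.322 and 0.257 FPKM in wildtype progenitors. In these entries the emerin-null values were the lower ones in growth medium and at day 1 and the higher ones from day 2. From day 2 the gene was assembled in pieces, and the widest piece of day 2 had 0.639 FPKM in emerin-null and 0.500 FPKM in wildtype cells. Another piece of day 3 went the other way, with 0.403 FPKM in emerin-null and 0.473 FPKM in wildtype cells. Another piece of day 4 had 0.471 FPKM in emerin-null and 0.133 FPKM in wildtype cells. Most of the later values were under 1 FPKM, the level a gene needed in a genotype to be counted.

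Counted at 1.5-fold, emerin-null progenitors had the higher value in 11 of the 60 chain and stage pairs and the lower one in 2, while 45 passed neither mark and 2 were under 1 FPKM in both genotypes. With the widest entries 10 were higher and 1 lower. Of all genes, 5.46, 4.73, 5.46, 7.25, 8.71 and 12.7% were past 1.5-fold higher in the emerin-null cells from proliferation to day 4 (5.76, 4.63, 5.3, 7.27, 8.63 and 12.9% with the widest entries). Those lower made up 5.94, 7.42, 5.9, 4.6, 5.14 and 5.88% (6.1, 7.46, 6.03, 4.37, 4.57 and 5.66% with the widest entries). Of the 10 higher pairs of the widest entries, 4 belonged to Itga9 and 4 to Itga3, and the others were Itga5 and Itgb5 at day 4. The genotypes were within 1.2-fold of each other at 30 of the 60 pairs. The share of all genes within 1.2-fold was not computed, so this count is a description only. In bulk RNA fewer cells expressing a chain and less RNA per cell cannot be told apart.

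Over the 6 stages, Itga9 passed the test and the other chains did not in the kept entries. Its mean log2 ratio was 0.86 (SE 0.16, adjusted p = 0.0145 in limma), a 1.82-fold higher level in emerin-null progenitors, and it was higher at 6 of 6 stages. Of all 11085 genes tested, 8.82% were called higher and 10.1% lower in emerin-null progenitors. An exact sign-flip test over the 6 ratios of Itga9 gave p = 0.03125, two-sided, the smallest that 6 stages allow. With the widest entries, Itga3 passed too, at 0.72 (SE 0.12, adjusted p = 0.0106), higher at 6 of 6 stages, and Itga9 was at 0.84 (SE 0.15, adjusted p = 0.0147), where 7.7% of 10906 genes were called higher and 8.36% lower. With the kept entries Itga3 had -4.11 (SE 4.11, adjusted p = 0.506), a mean that rests on the day 4 entry listed at 0, and without day 4 it was 0.66 (adjusted p = 0.0240). Its call over 6 stages thus depends on which day 4 entry is read.

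Markers of the differentiation state differed between the lines over the same stages. Of 3 progenitor markers tested 2 were higher in emerin-null progenitors, Pax7 with a mean log2 ratio of 2.34 (SE 0.29, adjusted p = 0.00344 in limma) and Myf5 with 1.19 (SE 0.15, adjusted p = 0.00351), each at 6 of 6 stages past 1.5-fold, while Myod1 was at 0.06 (SE 0.05, adjusted p = 0.380). Of 3 myotube markers tested 2 were lower, Ckm, muscle creatine kinase, at -0.52 (SE 0.11, adjusted p = 0.0225) and Tmem8c, the fusion protein myomaker, at -0.25 (SE 0.07, adjusted p = 0.0421), and Myog was at 0.05 (SE 0.06, adjusted p = 0.583). The part of these markers in the differences of Itga9 and Itga3 was not tested.

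Itgb5 had a mean ratio of 0.31 (SE 0.10, adjusted p = 0.0736), and 0.35 (SE 0.10, adjusted p = 0.0605) with the widest entry, so it missed the threshold in both. In limma it passed after median-ratio scaling (adjusted p = 0.0492) and after upper-quartile scaling (adjusted p = 0.0427). Both scalings were of the kept entries, among them that of day 2, which covered only 2.32% of Itgb5. Itga6 was at -0.25 (SE 0.11, adjusted p = 0.168), Itga5 at 0.16 (SE 0.09, adjusted p = 0.257), and Itgb3 at 0.52 (SE 0.39, adjusted p = 0.380). The ratios closest to 0 belonged to the most abundant pair. Itga7 had a mean log2 ratio of -0.01, with a 95% interval from -0.18 to 0.16 drawn from the spread over stages, and Itgb1 one of -0.05, with an interval from -0.18 to 0.09.

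**Figure D2:**
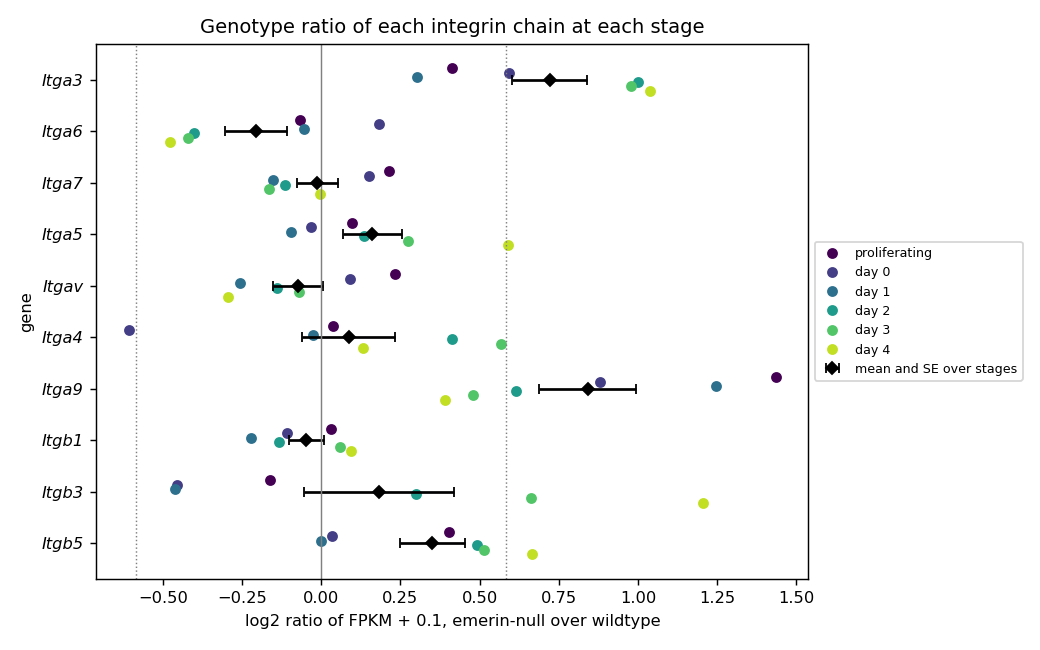
Log2 ratio of FPKM + 0.1, emerin-null over wildtype, of the 10 chains at each of the 6 stages (coloured dots, widest entries), with the mean and SE over stages from limma (black diamonds and bars); dotted lines mark 1.5-fold. All 6 dots of Itga3 and of Itga9 lie right of 0, while those of Itga7 and Itgb1 lie on both sides of it, within 0.22 of 0.

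Whether the genotype difference changed once the medium was switched was asked by the mean log2 ratio at days 1 to 4 minus that in proliferating and day 0 cells. In limma 0 of the 10 chains passed, where 0.298% of 11085 genes did. At an unadjusted p below 0.05 it was 2 of the 10 chains, Itga6 and Itga7, and 12.7% of all genes. Itga7 had a difference of -0.29 (SE 0.08, adjusted p = 0.287), since its emerin-null values stood above wildtype in the 2 growth-medium stages and below it in the 4 later ones. Itga9 had a difference of -0.44 (SE 0.32, adjusted p = 0.560), so the narrowing of its ratio was not past the test.

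The composition of the alpha chain transcripts shifted towards Itga7. With the widest entries Itga7 made up 44.3, 44.5, 49.5, 69.1, 71.9 and 80.2% of the summed FPKM of the 7 alpha chains in emerin-null progenitors from proliferation to day 4, against 42.3, 43.7, 51.4, 71.4, 76.6 and 82.6% in wildtype progenitors. The emerin-null share was thus slightly the larger in growth medium and the smaller at days 1 to 4. Itga6 held 20.6% in emerin-null and 23.9% in wildtype cells while proliferating, and 3.48% in emerin-null and 5.00% in wildtype cells at day 4. Itga3 held 2.86% in emerin-null and 1.41% in wildtype cells at day 4. Relative to Itgb1, Itga7 was at 0.487 in emerin-null and 0.429 in wildtype cells while proliferating, and at 1.46 in emerin-null and 1.56 in wildtype cells at day 4. A share carries no test, as each sample gives 1 value. With the kept entries the shares of day 3 and of wildtype day 4 have no use, being filled by the single Itgav and Itga3 entries.

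**Figure D3:**
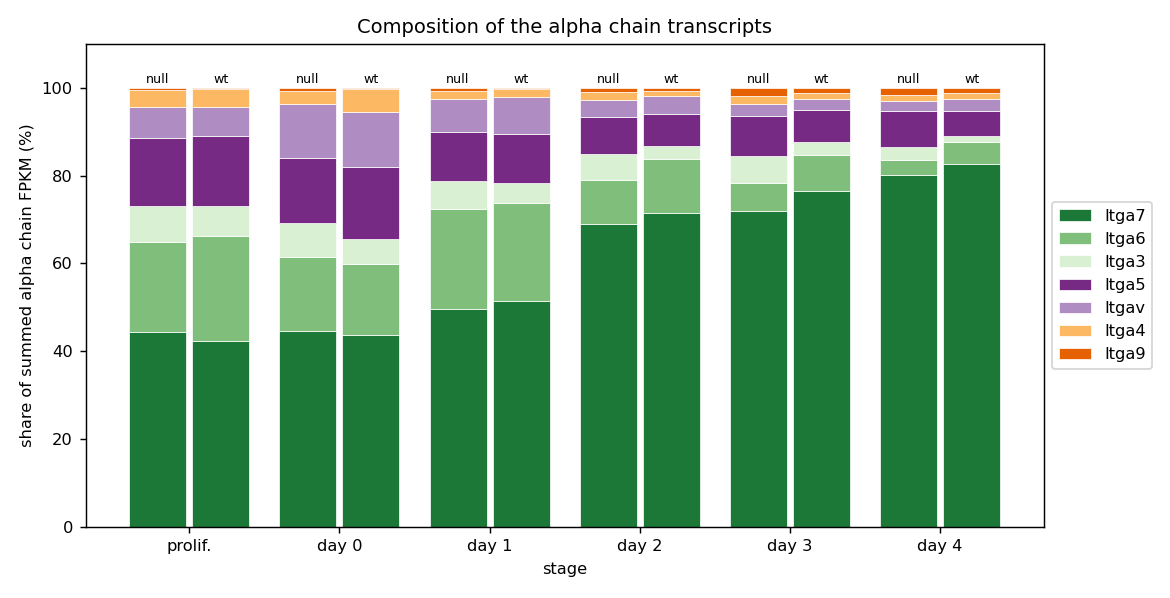
Share of each alpha chain in the summed FPKM of the 7 alpha chains (percent, widest entries) by stage, emerin-null bar left and wildtype bar right of each pair. Itga7 takes 44.3% of the emerin-null and 42.3% of the wildtype bar in proliferating cells, and 80.2% and 82.6% at day 4.

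Most chains stood 2-fold or more away from their day 0 level at day 4. With the widest entries Itga7 and Itga9 were higher at day 4 in emerin-null and in wildtype progenitors, where 20.7% of all genes were in emerin-null and 19% in wildtype cells. Itga3, Itga6, Itgav and Itgb3 were lower at day 4 in both genotypes, where 28.7% of all genes were in emerin-null and 32.3% in wildtype cells. Itga4 and Itga5 were past 2-fold lower in wildtype cells and short of it in emerin-null cells, a difference that was not tested. In the kept entries Itga5 and Itga6 fell short of the mark in wildtype cells after median-ratio scaling, and Itga4 and Itga6 with summed entries. Itga5 had 22.4 FPKM at day 4 and 33.1 FPKM at day 0 in emerin-null progenitors, against 14.9 FPKM at day 4 and 33.8 FPKM at day 0 in wildtype progenitors. The stage tables were assembled and normalized separately, so these changes are descriptions.

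The promoters of the 3 chains with the highest mean ratios in the widest entries are printed here to show their E-boxes, the CANNTG letters that MyoD and related muscle factors are known to bind. RefSeq promoters (250 bases before to 50 after the start, GRCm38.p6) were found for 7 of the 10 chains, 8 promoters in all, with 2 for Itga3, and none for Itga6, Itga7 and Itgb3. Capitals mark CANNTG, which was searched as these letters and reads the same on both strands. The Itga9 promoter is at chr9:118711442-118711741 on the plus strand, inside the annotated gene and downstream of its annotated first base, the Itga3 promoter nearest the annotated first base of the gene at chr11:95076665-95076964 on the minus strand and the Itgb5 promoter at chr16:33829415-33829714 on the plus strand.
Itga9: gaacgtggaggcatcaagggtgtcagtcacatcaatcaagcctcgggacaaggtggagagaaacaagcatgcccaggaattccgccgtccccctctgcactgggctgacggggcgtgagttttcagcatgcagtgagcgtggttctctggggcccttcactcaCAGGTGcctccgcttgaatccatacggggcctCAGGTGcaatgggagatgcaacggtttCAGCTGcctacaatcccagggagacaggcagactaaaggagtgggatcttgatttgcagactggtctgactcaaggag
Itga3: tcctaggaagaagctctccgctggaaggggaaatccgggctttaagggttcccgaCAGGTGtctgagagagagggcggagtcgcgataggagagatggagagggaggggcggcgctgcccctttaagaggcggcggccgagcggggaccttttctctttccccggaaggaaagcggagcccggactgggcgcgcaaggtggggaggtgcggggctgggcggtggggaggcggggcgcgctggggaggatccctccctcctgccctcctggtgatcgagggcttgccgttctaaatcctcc
Itgb5: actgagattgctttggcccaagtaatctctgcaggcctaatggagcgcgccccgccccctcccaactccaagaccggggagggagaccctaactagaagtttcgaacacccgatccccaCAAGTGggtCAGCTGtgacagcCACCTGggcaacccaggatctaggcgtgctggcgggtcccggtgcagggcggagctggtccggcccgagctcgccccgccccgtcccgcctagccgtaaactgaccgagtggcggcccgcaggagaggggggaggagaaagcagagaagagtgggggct
The Itga9 and Itgb5 windows hold 3 E-boxes each, of which 1 each reads CAGCTG, and the Itga3 window holds 1, as does the second Itga3 promoter, at chr11:95069149-95069448, which is not printed. At least 1 CANNTG stood in 72.3% of all 32851 promoters of that length, 3 or more in 17.6% and a CAGCTG in 16.3%. Of the promoters not printed, that of Itga5 holds 2 CANNTG, of which 1 reads CAGCTG, and that of Itga4 holds 1, which reads CAGCTG. The Itgav and Itgb1 windows hold no CANNTG. A match is a description of letters, not of binding.

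The proteins that integrins bind were followed from a list of 30 ligand genes chosen with earlier results of these data known. Over all 6 stages 2 of 24 tested ligands were higher in emerin-null progenitors and 1 was lower, beside 8.82% higher and 10.1% lower of all genes, so neither share was above that of all genes. The median of the ligands' mean log2 ratios was 0.07, beside -0.01 over all genes. Tnc, the gene of tenascin-C, had 20.9, 28.9, 11.2, 10.9, 9.19 and 8.51 FPKM in emerin-null progenitors, against 6.74, 12.7, 9.84, 3.04, 1.70 and 1.15 FPKM in wildtype progenitors. Its mean log2 ratio was 1.66 (SE 0.32, adjusted p = 0.0164 in limma), and it was higher at 6 of 6 stages. Emilin1, a matrix glycoprotein of elastic fibres, had 11.2, 10.9, 7.37, 5.39, 4.18 and 4.07 FPKM in emerin-null progenitors, against 4.71, 6.22, 4.01, 2.12, 1.35 and 1.07 FPKM in wildtype progenitors, with a mean of 1.27 (SE 0.14, adjusted p = 0.00256), higher at 6 of 6 stages. Both are known ligands of the Itga9 and Itgb1 pair. The other ligands of that pair named above did not pass. Vcam1 had a mean log2 ratio of 0.04 (SE 0.21, adjusted p = 0.898). Spp1, osteopontin, was at -0.33 (SE 0.29, adjusted p = 0.449), with 577, 1150, 243, 129, 300.2 and 349.6 FPKM in emerin-null progenitors, against 1371, 1282, 555, 187, 247 and 194 FPKM in wildtype progenitors. It was past 1.5-fold lower in proliferating cells and at day 1 and higher at day 4. Edil3, a secreted RGD protein bound by Itgav pairs, was the lower one at -0.70 (SE 0.13, adjusted p = 0.0137), lower at 6 of 6 stages. It had between 3.23 and 6.87 FPKM in emerin-null and between 3.98 and 9.56 FPKM in wildtype progenitors.

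At single stages the ligands past 1.5-fold were mostly lower at day 1 and mostly higher from day 2. In proliferating emerin-null cells 2 of 23 ligands were higher and 3 lower, and at day 0 again 2 and 3 of 23. Day 1 had 1 higher and 6 lower of 24, day 2 had 6 higher and 1 lower of 25, day 3 had 12 higher and 0 lower of 26, and day 4 had 16 higher and 0 lower of 25. Over all genes the share higher was 5.46, 4.73, 5.46, 7.25, 8.71 and 12.7% over the same stages, so it too was largest at day 4. The share of all genes lower was 5.94, 7.42, 5.9, 4.6, 5.14 and 5.88%. The median log2 ratio of the ligands at day 4 was 0.85, beside 0.05 over all genes, and with the widest entries 14 of 24 were higher and 1 lower. The day 4 genes named here were picked after their values were seen. Col1a1, a chain of type I collagen, had 51.4 FPKM in emerin-null and 7.61 FPKM in wildtype cells at day 4, and Postn, the matrix protein periostin, 15.3 FPKM in emerin-null and 2.39 FPKM in wildtype cells. Fn1, fibronectin, had 55.6 FPKM in emerin-null and 29.5 FPKM in wildtype cells. Over the 6 stages none of these 3 passed the test (adjusted p = 0.587 for Col1a1, 0.130 for Postn and 0.496 for Fn1). Of the laminin chains, Lama4 was past 1.5-fold at day 4, with 1.23 FPKM in emerin-null and 0.465 FPKM in wildtype cells. Its widest entry was under 1 FPKM in both genotypes and was not counted. Lamb3 was past 1.5-fold too, with 1.63 FPKM in emerin-null and 0.878 FPKM in wildtype cells. Lamb1 had 72.8 FPKM in emerin-null and 96.7 FPKM in wildtype cells, Lamc1 17.5 and 12.2 FPKM, and Lama2 5.06 and 4.16 FPKM in emerin-null and wildtype cells, none of them past 1.5-fold.

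Markers of other cells and states differed at day 4 too. The 3 cycling markers with a usable entry summed to 15.7 FPKM in emerin-null and 3.87 FPKM in wildtype cells, and all 3 were past 1.5-fold higher. The 4 fibroblast markers measured summed to 111 FPKM in emerin-null and 55.7 FPKM in wildtype cells, a sum set by Col3a1 (108 FPKM in emerin-null and 53.1 FPKM in wildtype cells), while Dcn went the other way (1.41 FPKM in emerin-null and 2.27 FPKM in wildtype cells). Over all stages the fibroblast sum ranged between 103 and 325 FPKM in emerin-null and between 55.7 and 412 FPKM in wildtype cells, with Lum and Tcf21 not analysed here. The smooth muscle and pericyte markers summed to 899.5 FPKM in emerin-null and 888 FPKM in wildtype cells, a sum set by Acta2 (862 FPKM in emerin-null and 871 FPKM in wildtype cells), and 3 of the 4 counted, Tagln, Cspg4 and Pdgfrb, were past 1.5-fold higher in emerin-null cells, with a list median log2 ratio of 1.11. The part of these markers in the ligand counts was not tested.

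The list of 37 adaptors and kinases, which also held the surface proteins Cd9, Cd47, Cd81 and Cd151, differed little between genotypes. Over all stages 1 of 30 was higher in emerin-null progenitors and 0 were lower in limma, beside 8.82% and 10.1% of all genes. The one was Dock1, an exchange factor for Rac, with a mean log2 ratio of 0.32 (SE 0.06, adjusted p = 0.0164), higher at 6 of 6 stages and past 1.5-fold at none. It had 10.2, 11.3, 7.66, 4.06, 3.32 and 3.37 FPKM in emerin-null progenitors, against 8.33, 9.92, 7.05, 3.08, 2.49 and 2.28 FPKM in wildtype progenitors. At an unadjusted p below 0.05, 3 of these 30 genes were higher and 1 lower, beside 35.6% of all genes either way. At day 4, 5 of 33, Cd9 among them, were past 1.5-fold higher in the emerin-null cells, beside 12.7% of all genes. Chosen by these values, examples are Flna, a filamin that crosslinks actin, at 24.3 FPKM in emerin-null and 8.98 FPKM in wildtype cells, and Zyx, zyxin, at 53.5 FPKM in emerin-null and 27.7 FPKM in wildtype cells.

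**Figure D4:**
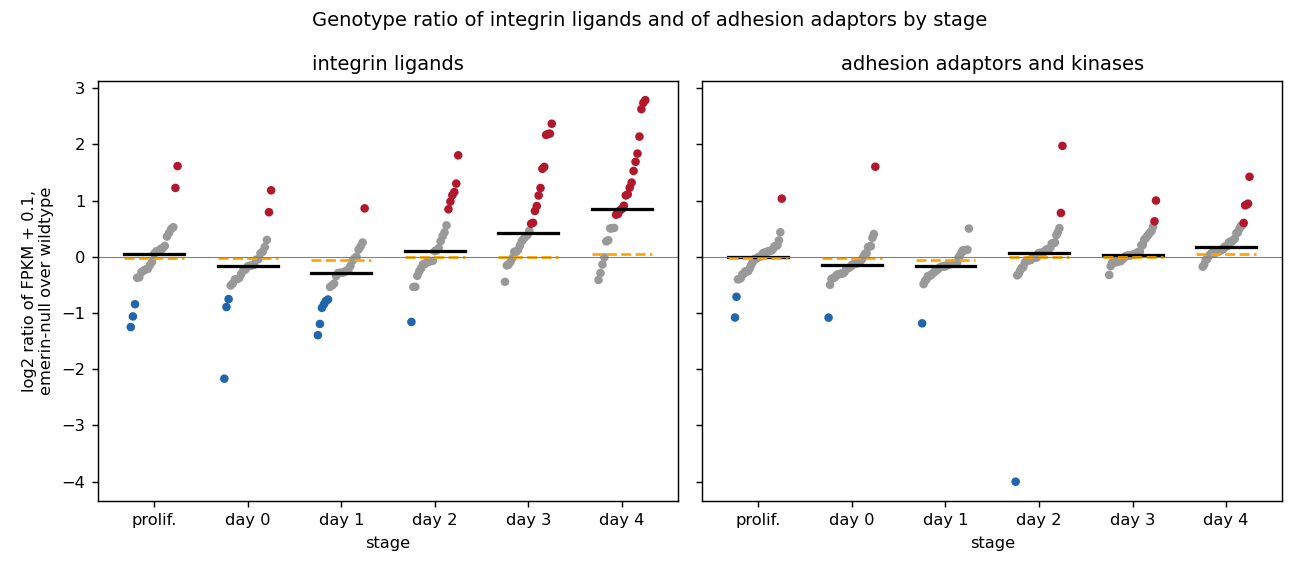
Log2 ratio of FPKM + 0.1, emerin-null over wildtype, of the integrin ligands (left) and of the adhesion adaptors and kinases (right) with at least 1 FPKM at each stage; red and blue dots are past 1.5-fold, black lines are list medians and dashed orange lines the median of all genes. The ligand median is 0.85 at day 4, against 0.05 for all genes, while that of the adaptors is 0.18; 1 dot at day 2 (Ptk2, an entry listed at 0 in emerin-null cells) is drawn at the lower limit.

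The genes whose 12 values ran most like those of the 2 abundant chains were sought among 9485 genes with at least 1 FPKM in all 12 samples. For Itga7 the first was Mettl7b, which carries the same entry and identical values, and then Htra2 and Dqx1 (Pearson r = 0.966 for each), which share 1 entry. For Itgb1 they were Wipi2 (r = 0.979) and then Ccdc137 and Arl16 (r = 0.968 for each), which again share 1 entry. With the widest entries Dqx1 was at r = 0.267, Ccdc137 at -0.05 and Arl16 at 0.261. The 12 values share 2 cell lines and 6 tables, and the r values are descriptions.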

How the data were processed

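RNA of emerin-null and wildtype H2K progenitors at 6 stages was sequenced by the authors, checked with FastQC, aligned with TopHat (mm10) and passed to Cuffdiff, as the submitters' processing notes name them. Which version was run is not given in the sources used here. Deposited were the authors' 6 Cuffdiff gene tables, 1 per stage, whose 2 value columns, named for the 2 genotypes, were read as FPKM from the table layout. Columns with the authors' own folds, test statistics, p-values, q-values and calls, and second sheets holding only the entries they called, were not used. Labels and methods differ on the temperature of proliferating cells, which entered no computation.

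Entries with status OK were used, and per gene and stage the one with the largest summed FPKM was kept. The members and gene lists were chosen with earlier results of these data known. Ratios are log2 of FPKM plus 0.1, emerin-null over wildtype, within a table. At a stage a gene was called past 1.5-fold with at least 1 FPKM in either genotype. Over stages, limma 3.58.1 (R 4.3.3) tested the mean of the 6 ratios, and days 1 to 4 minus growth medium, for genes with an OK entry at all 6 stages and a mean of at least 1 FPKM, with Benjamini-Hochberg adjustment at 0.05. It was tested on simulated data. The rule named the members, Emd, list genes that passed the test over stages or, in a list with none, were past 1.5-fold one way at 4 or more stages, and the 3 genes most like Itga7 and Itgb1. Other ligands, adaptors and markers were named after their values were seen. Alternatives were a pseudocount of 1, no filter, summed entries, genes alone at their locus, median-ratio and upper-quartile scaling, a 2-fold mark, a sign-flip test, each stage left out and, chosen after seeing the data, the entry of the widest locus that names no other gene where there is one (of several entries there, the upper median by summed FPKM). Gene positions come from GENCODE M21. The depth per sample is unknown.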

Additional observations from a re-analysis of the deposited data

How the results depend on the processing

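Itga9 stayed higher and past the threshold in all 20 fits run over the stages, with mean log2 ratios between 0.51 and 0.96 and adjusted p between 0.00392 and 0.0450. The mean of Itga3 turned to 0.72 with the widest entry. Over all 20 fits, kept and widest entries pooled, it lay between -5.13 and 0.80. In the kept entries its sign was set by the day 4 entry alone. With both the widest entry and 1 stage left out, Itga3 passed in all 6 fits. Chains called over stages numbered 2 with median-ratio scaling and with upper-quartile scaling, both of the kept entries. They were Itga9 and Itgb5, where Itgb5 had mean log2 ratios of 0.32 and 0.33 (adjusted p = 0.0492 and 0.0427 in limma). The number was also 2 with the widest entry, and between 1 and 2 without 1 stage. Ratios near 0 changed sign. Itga7 was at 0.00102 with median-ratio and 0.00635 with upper-quartile scaling and between -0.0568 and 0.0186 without 1 stage. Itgav was at -0.0732 with the widest entry. Over all fits, kept and widest entries pooled, Itgav lay between -0.134 and 0.199 and Itga4 between -0.00978 and 0.225. Itgb3 lay between -0.0230 and 0.721 over the same fits, and its value below 0 came from the widest entry. The genes called over stages were 1319 for genes alone at their locus and between 819 and 1717 without 1 stage, against 2098. For days 1 to 4 minus growth medium, 21 genes passed with summed entries, 17 alone at their locus and 8 with the widest entry, and between 1 and 131 without 1 stage, against 33, with 0 chains among them in each fit.

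Of the 60 chain and stage pairs, 7 were higher and 1 lower with a pseudocount of 1, and 5 and 1 at a 2-fold mark. The lower count was also 1 for genes alone at their locus, with median-ratio scaling, with upper-quartile scaling and with the widest entry. From day 0 to day 4 the chains at least 2-fold lower numbered 2 in emerin-null and 3 in wildtype cells with summed entries (Itga4 and Itga6 lost in wildtype, Itga6 and Itgb3 in emerin-null cells), and 3 in wildtype cells after median-ratio scaling of all 12 columns (Itga5 and Itga6 lost). With the widest entry the Itga7 share was 71.9% in emerin-null and 76.6% in wildtype cells at day 3 and 82.6% in wildtype cells at day 4, where summed entries gave 0.00128%. The cause of these shifts was not tested, apart from the single entries named. The fits over stages pair the genotypes by stage. No block by replicate number was fitted, since each genotype and stage has 1 value. Low chains such as Itga9 and Itgb3 rest on few fragments of unknown number.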
